A study of Mus musculus with 8 samples.

Results

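Type I interferon-stimulated genes were followed through the cells of a mouse glioblastoma and of the naïve brain. The genes were Ifit1, Ifit2, Ifit3, Isg15, Rsad2, Usp18, Oasl2, Zbp1, Ifi27l2a and Ifitm3. They were chosen by name as 10 members of the 32502 genes listed in the 8 libraries, and each member had UMIs (unique molecular identifiers, which count single captured transcripts). Single cells were measured by Drop-seq, a droplet method that captures the 3′ ends of polyadenylated transcripts. GL261, an established glioma line derived from C57BL/6 mice, was implanted (500 cells) into the brains of C57BL/6 mice (C57BL/6N in the study's methods) that were either wild type (WT, Irg1/Acod1 +/+) or homozygous knock-out (KO, Irg1/Acod1 -/-). The KO allele carries a cassette around exons of Acod1, the gene of the enzyme that makes itaconate in activated myeloid cells, and is constitutive in the host. The tumour cells are the same line in both hosts, so that for them the genotype names the host only. Mice were taken at an early (5 to 10 mm3), intermediate (20 to 25 mm3) or late (30 to 35 mm3) tumour volume, and untreated brains of both genotypes were the naïve controls. Each of the 8 conditions had 1 library. A tumour library came from 1 mouse, each naïve library named 2 mice, and ages are not given. Naïve brains were whole, whereas tumour-bearing brains were reduced to the tumour core, so tumour and brain region cannot be told apart. Myelin was removed with beads in all of them. The late WT and KO mice were both male. The earlier pairs differed in sex, and there genotype and sex cannot be told apart.

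Type I interferons, which include interferon beta, bind a receptor made of the Ifnar1 and Ifnar2 chains. The kinases Jak1 and Tyk2 then phosphorylate Stat2, which works with Irf9 to switch on genes whose promoters carry an interferon-stimulated response element. In the brain, microglia, vessel cells and glia can all respond, and interferon gamma raises part of the same genes through Irf1. Among the members, Ifit1, Ifit2 and Ifit3 are RNA-binding or RNA-complex proteins that hold back translation of viral RNA. Isg15 is a ubiquitin-like modifier, and Usp18 takes it off its targets and also damps signalling at Ifnar2. Rsad2 (viperin) makes a nucleotide that ends viral RNA chains, Oasl2 belongs to the oligoadenylate synthetase family and Zbp1 senses Z-form nucleic acid. Ifitm3 blocks viral entry from endosomes, and Ifi27l2a is a small interferon-induced membrane protein.

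The promoters of 7 members were in the RefSeq table of GRCm38.p6. They are shown because a shared response element is the sequence feature by which type I interferon is known to act on such genes. The motif searched was GAAANNGAAA on either strand, the reverse being TTTCNNTTTC, within 300 bases (250 before and 50 after the start). This was found in 3.99% of the 27025 genes with a promoter in the table. It occurred before the start of Ifit1, Ifit3, Isg15 and Rsad2, after the start in Ifitm3, and not in these windows of Ifit2 and Oasl2. Capitals mark the matches, which for Isg15 are 3 that overlap. Each stretch is written 5′ to 3′ on the strand of its gene, at chr19:34640765-34640833 for Ifit1 (plus strand), chr19:34583353-34583436 for Ifit3 (plus strand), chr4:156200855-156200916 for Isg15 (minus strand) and chr12:26456543-26456592 for Rsad2 (minus strand).
Ifit1: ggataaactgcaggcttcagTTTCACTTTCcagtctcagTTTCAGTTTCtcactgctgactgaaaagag
Ifit3: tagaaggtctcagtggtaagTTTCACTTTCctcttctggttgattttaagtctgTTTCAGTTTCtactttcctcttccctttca
Isg15: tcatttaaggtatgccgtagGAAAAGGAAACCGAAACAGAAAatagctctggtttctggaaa
Rsad2: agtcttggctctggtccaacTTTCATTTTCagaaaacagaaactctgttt
The matches TTTCACTTTC and TTTCAGTTTC stood in the same order in Ifit1 and Ifit3. These genes and Ifit2 lie within 99.3 kb of each other on chromosome 19 (34550694 to 34650009, GRCm38), and the other members lie on chromosomes 2, 4, 5, 6, 7 and 12. Ifit3 and Ifitm3 have close copies (Ifit3b and Ifitm2) with 3′ ends that the counting could split, so part of their counts is uncertain.

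A total of 5698 cells with at least 1000 genes were kept from 8000 barcodes, 454 to 1000 per library, and 2 barcodes occurred in more than 1 library. The median depth per cell was 2608 to 5643 UMIs and was highest in the WT intermediate library, where 925 of 1000 cells were tumour cells. Cells were clustered again here and named from marker genes, so that each class name means cells like that type. Microglia-like cells are called TAM I and macrophage-like cells TAM II where they come from tumour-bearing libraries (TAM, tumour-associated microglia or macrophages). Levels are in CPM, the standard depth-scaled share that a gene's UMIs take of all UMIs summed over the cells of 1 class in 1 library, and sums of fewer than 5 cells were left out. Acod1 itself gave 128, 35.3 and 9.01 CPM in TAM II of the WT early, intermediate and late libraries and 68.5, 13.6 and 56.4 CPM in those of the KO libraries. A 3′ count can still read the KO transcript, so this checks no label.

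The members were near the floor in most cells of the naïve brain and high in most classes of the tumour. Their summed level in the naïve libraries (WT, then KO) was 102 and 131 CPM in microglia-like cells, 86.7 and 67.0 CPM in oligodendrocytes and 33.7 and 113 CPM in astrocytes. The vessel was the exception, with 1386 and 1461 CPM in naïve endothelial cells. Ciliated ependymal-like cells also stood above the others at 813 and 627 CPM, of which Ifitm3 alone gave 567 and 548 CPM. In the tumour-bearing libraries the median of the summed level was 4136 CPM in endothelial cells, 3628 in TAM II, 3096 in TAM I, 2958 in tumour cells, 2590 in lymphocytes, 1412 in oligodendrocytes and 814 CPM in astrocytes. The lowest endothelial library (3793 CPM) lay just above the highest TAM I library (3791 CPM) and above that of tumour cells (3510 CPM), whereas the ranges of TAM II, TAM I and tumour cells overlapped, as did those of oligodendrocytes and astrocytes. Neuron-like cells reached 5 cells in 3 tumour-bearing libraries and had 0 to 73.1 CPM there, from at most 2 UMIs, with exact Poisson 95% upper limits of 114 to 264 CPM. The last 1000 of the 3000 barcodes of a library, ranked by UMIs, carried 126 and 254 CPM in the naïve libraries and 1279 to 3456 CPM in the tumour-bearing ones. The part of free RNA in the class levels was not tested.

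**Figure D1:**
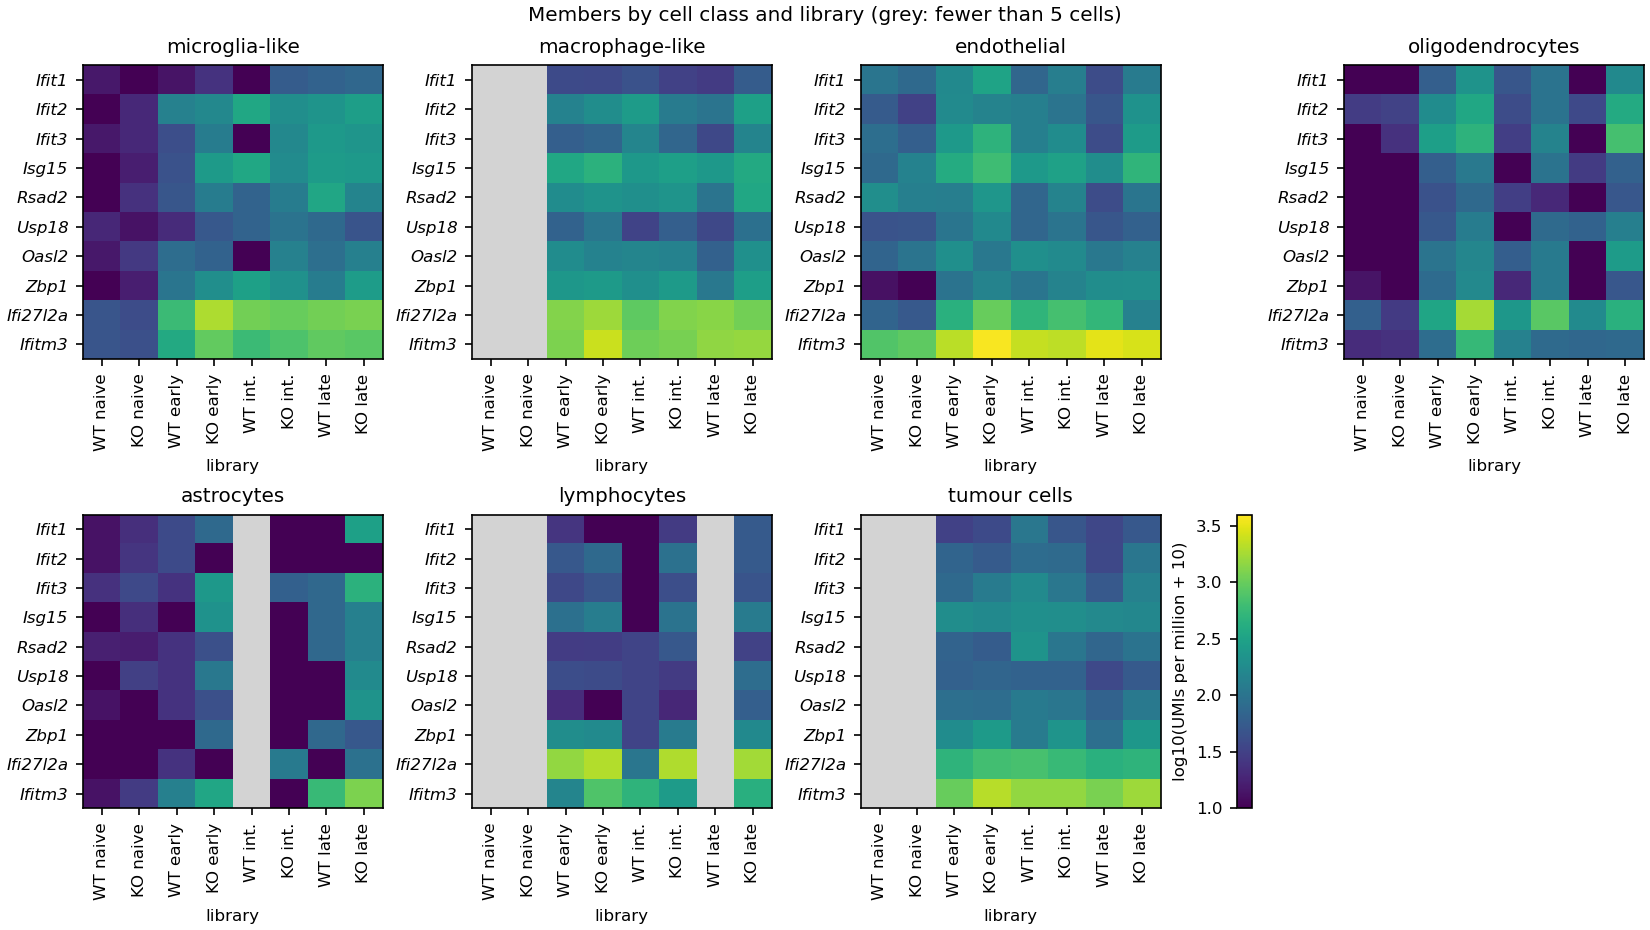
Level of each of the 10 members (rows) in each library (columns) for 7 cell classes, as log10(CPM + 10), with grey for sums of fewer than 5 cells. The naïve columns are dark for microglia-like cells, oligodendrocytes and astrocytes, whereas naïve endothelial cells already show most members, and Ifitm3 at 767 and 893 CPM.

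**Figure D2:**
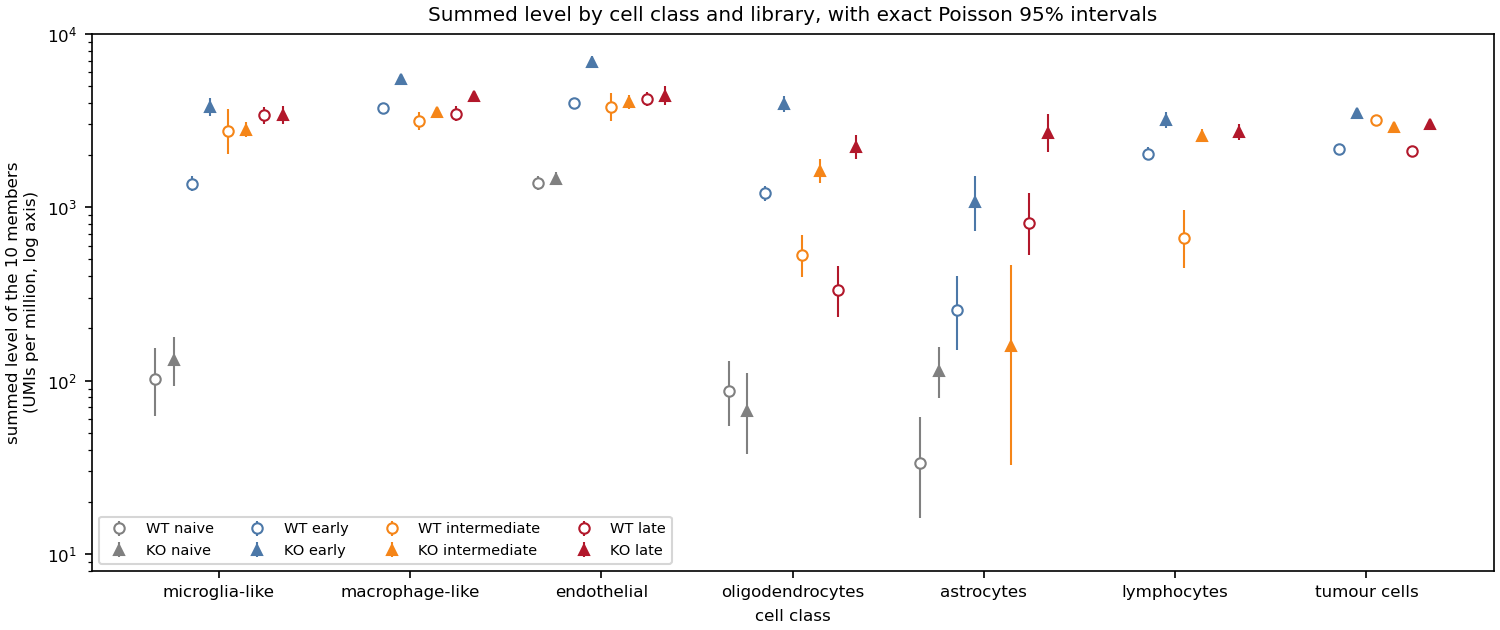
Summed level of the 10 members (CPM, log axis) by cell class, 1 point per library, with exact Poisson 95% intervals that cover counting error only; open circles are WT and filled triangles KO. In microglia-like cells the naïve libraries sit at 102 and 131 CPM and the tumour-bearing libraries between 1366 and 3791 CPM.

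In microglia-like cells the comparison asked which genes differ between TAM I and the same cells of naïve mice. The 10 members together rose from 102 and 131 CPM in the naïve libraries to between 1366 and 3791 CPM in the 6 tumour-bearing ones, with no overlap. Of the 10, 8 passed the filter on low counts, and these 8 were called higher by edgeR's quasi-likelihood test (adjusted p under 0.05 over all genes), beside 9.91% of the 3240 genes tested. Members near 0 in the naïve brain passed the filter through their tumour-bearing sums, so this count is a description. Their median log2 difference was 4.60, beside -0.0018 over all genes tested.

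Ifi27l2a stood at 38.7 and 30.2 CPM in the naïve WT and KO libraries and at 583, 1098 and 1916 CPM (lowest, median and highest) in the tumour-bearing ones. It was higher in 6 of 6, with a log2 difference of 4.98 ± 0.46 (SE) and an edgeR adjusted p of 8.69e-09. Ifitm3, the entry factor, went from 38.7 and 33.6 CPM to 366, 793 and 944 CPM. Its log2 difference was 4.30 ± 0.45 (SE, edgeR adjusted p = 7.96e-08), again with no overlap. For both genes the lowest of the tumour-bearing values was in the WT early library.

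Isg15 had no UMI in the naïve WT library, where 3 UMIs would be 14.5 CPM, and 6.72 CPM in the naïve KO library, against 35.6, 247 and 345 CPM. This was a log2 difference of 5.31 ± 0.89 (SE, edgeR adjusted p = 0.000503). The WT early library was the low one, at 35.6 CPM, and the other 5 lay between 168 and 345 CPM. Usp18, its protease, did not pass the filter. Its levels were 9.67 and 3.36 CPM in the naïve libraries and between 10.7 and 87.5 CPM in the tumour-bearing ones, just without overlap.

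Ifit2 went from 0 and 10.1 CPM to 128, 198 and 345 CPM (log2 difference 4.89 ± 0.62 SE, edgeR adjusted p = 2.13e-06). Ifit3 went from 4.83 and 10.1 CPM to a median of 134 CPM, and was higher in 5 of 6 libraries. The exception was the WT intermediate library, which had no Ifit3 UMI but held only 5 microglia-like cells (log2 difference 3.98 ± 0.83 SE, edgeR adjusted p = 0.00277). Ifit1 did not pass the filter, with at most 4.83 CPM in the naïve libraries and 0 to 63.1 CPM in the tumour-bearing ones, where it was higher in 4 of 6. The groups overlapped for Ifit1 and Ifit3 and not for Ifit2.

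Zbp1, the nucleic acid sensor, stood at 0 and 6.72 CPM in the naïve libraries and at 92.5, 189 and 288 CPM in the tumour-bearing ones, higher in 6 of 6 (log2 difference 5.23 ± 0.67 SE, edgeR adjusted p = 2.13e-06). Rsad2 went from 0 and 13.4 CPM to 39.1, 114 and 337 CPM (log2 difference 3.94 ± 0.95 SE, edgeR adjusted p = 0.0122). Its highest value, in the WT late library, was well above the next one of 139 CPM. Oasl2 went from 4.83 and 16.8 CPM to a median of 76.7 CPM, with none in the 5 cells of the WT intermediate library (log2 difference 2.93 ± 0.68 SE, edgeR adjusted p = 0.0031).

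Other genes moved beside them. The 10 macrophage markers summed to 658 and 715 CPM in naïve microglia-like cells and to between 2018 and 5654 CPM in TAM I, and oligodendrocyte markers reached 4803 CPM in TAM I of the WT late library; their part in the result was not tested. The 12 microglia markers all had UMIs in every one of these libraries. Without the naïve WT library, 5 members were called, the adjusted p of Ifit3, Oasl2 and Rsad2 then lying between 0.0701 and 0.123.

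In endothelial cells the summed level was already at 1386 and 1461 CPM in the naïve brain, and 5 members were called higher in the tumour. The edgeR test called 5 of the 9 members that passed the filter higher and 0 lower, beside 4.65% of the 3163 genes tested that were called higher. Isg15 had 67.5 and 131 CPM in the naïve WT and KO libraries and 180, 343 and 606 CPM (lowest, median and highest) in the tumour-bearing ones (log2 difference 1.93 ± 0.40 SE, edgeR adjusted p = 0.0113). Ifitm3 had 767 and 893 CPM against 2133, 2551 and 3748 CPM, higher in 6 of 6 (log2 difference 1.71 ± 0.39 SE, edgeR adjusted p = 0.019). The groups overlapped for neither gene.

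Zbp1 was the member that was all but missing from the naïve vessel, at 3.07 and 0 CPM. It reached 87.8, 136 and 183 CPM in the tumour-bearing libraries (log2 difference 5.95 ± 0.77 SE, edgeR adjusted p = 0.000314). It passed the filter through these sums, so the count of 5 is a description too. Ifi27l2a went from 58.3 and 43.7 CPM to 128, 507 and 977 CPM (log2 difference 3.39 ± 0.63 SE, edgeR adjusted p = 0.0115), the KO late library being the low one. Ifit2 went from 46.0 and 21.9 CPM to 40, 130 and 201 CPM, with overlap (log2 difference 1.89 ± 0.55 SE, edgeR adjusted p = 0.0467).

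Rsad2 did not follow them. It stood at 181 and 123 CPM in the naïve vessel and at 30, 105 and 223 CPM in the tumour vessel, above the naïve median in 1 of 6 libraries (log2 difference -0.45 ± 0.46 SE, edgeR adjusted p = 0.593). Ifit1 had 92.0 and 68.3 CPM against 30 to 309 CPM (log2 difference 0.74 ± 0.55 SE, edgeR adjusted p = 0.454). Ifit3 and Oasl2 missed the threshold too, with log2 differences of 1.70 ± 0.66 and 0.97 ± 0.42 (SE) and edgeR adjusted p of 0.155 and 0.172. Usp18 did not pass the filter, at 36.8 and 38.2 CPM against 40 to 161 CPM.

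The vessel cluster changed in make-up as well. Its 10 endothelial markers summed to between 21772 and 21871 CPM in the naïve libraries and to between 6753 and 15748 CPM in the tumour-bearing ones, all 10 being present in each, whereas mural and fibroblast markers rose from 2309 and 3521 CPM to between 4056 and 9510 CPM. Among the 268 of 327 cells with more endothelial than mural UMIs, 4 members passed the filter and 3 of them, Isg15, Ifi27l2a and Ifitm3, were called higher. With either naïve library left out, 1 member, Zbp1, was called, and with the highest doublet scores removed 3 were (Isg15, Zbp1 and Ifitm3). Ifit2 also lost its call with the highest doublet scores removed, with at least 10 cells per sum, in clusters made without interferon genes and without 5 of the 6 tumour-bearing libraries in turn (adjusted p between 0.0566 and 0.17).

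**Figure D3:**
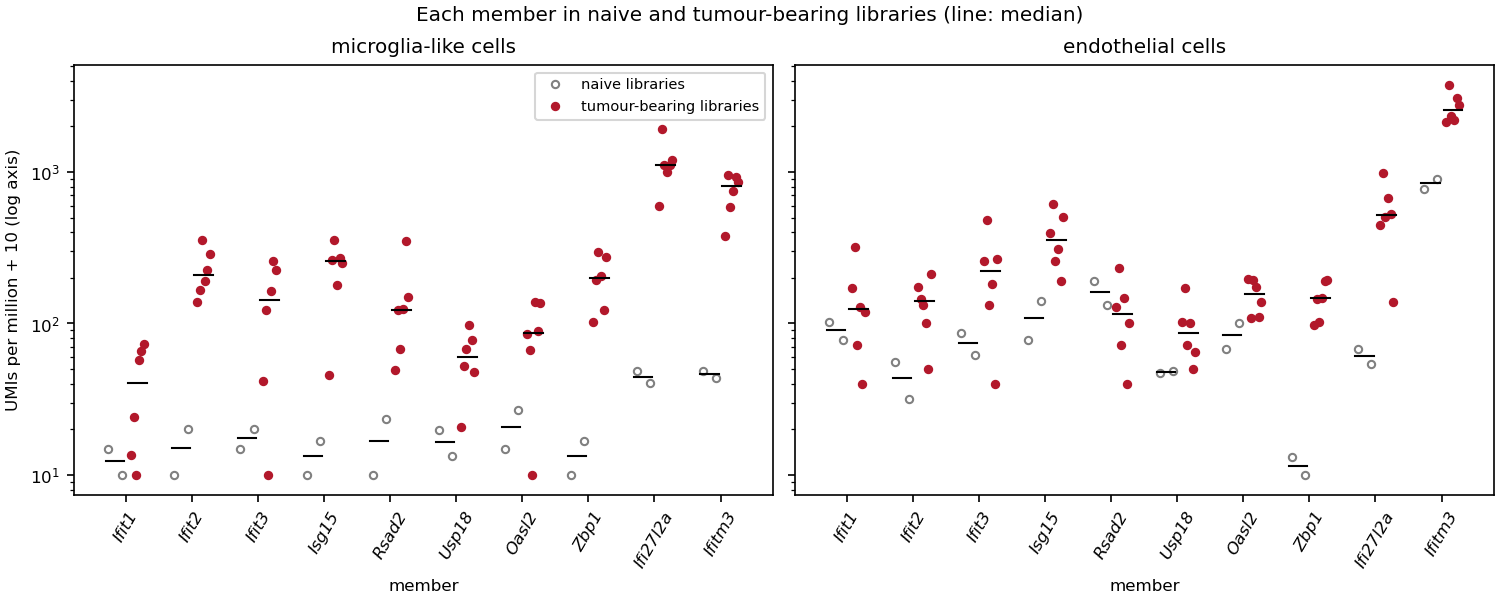
Level of each member (CPM + 10, log axis) in microglia-like cells (left) and endothelial cells (right), with 1 point per library, open for the 2 naïve and filled for the 6 tumour-bearing libraries, and a line at the median. In microglia-like cells the naïve points lie at or below 38.7 CPM for every member, whereas in endothelial cells only Zbp1 starts near 0 and Rsad2 lies lower in most tumour-bearing libraries.

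The naïve vessel and naïve microglia-like cells were then set against each other in a fit over both classes with library as block, chosen after the values had been seen. Endothelial cells were called higher for 5 of the 9 members that passed the filter, beside 19.2% of the 4260 genes tested. Members near 0 in naïve microglia-like cells passed the filter through their other sums, so this count is a description. Ifit1 was higher by 4.62 ± 1.14 (log2, SE; edgeR adjusted p = 0.00226), Isg15 by 4.27 ± 0.99 (edgeR adjusted p = 0.00176), Rsad2 by 3.87 ± 1.03 (edgeR adjusted p = 0.00921), Oasl2 by 2.41 ± 0.62 (edgeR adjusted p = 0.00175) and Ifitm3 by 4.26 ± 0.48 (edgeR adjusted p = 4.9e-09). Ifi27l2a and Zbp1 differed by less than their error, at 0.31 ± 0.58 and -1.23 ± 1.36 (log2, SE). Left-out libraries moved the count between 4 and 8, the highest being without the WT late library, and the calls of Ifit1, Isg15 and Rsad2 were each lost without 1 of the naïve libraries (adjusted p between 0.055 and 0.0664).

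In the same fit the change from naïve to tumour-bearing was smaller in endothelial than in microglia-like cells for 8 of the 9 members tested. The median difference between the changes was -2.40 (log2) over these 9 and 0.189 over all genes tested. The members' summed level started higher in naïve endothelial cells, so this count is a description too. For Ifitm3 the difference between the changes passed the threshold, at -2.40 ± 0.53 (log2, SE; edgeR adjusted p = 0.00504), where 3.5% of the 4260 genes passed in either direction. For Rsad2 it was -4.00 ± 1.19 (SE, edgeR adjusted p = 0.111), and for Isg15 -3.25 ± 1.13 (SE, edgeR adjusted p = 0.152), so these were not told apart at this threshold. The difference for Ifitm3 was no longer called without the naïve KO library (-2.47, adjusted p = 0.114), without the WT early library 4 members were called and without the WT late library 2.

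Oligodendrocytes, which make myelin, had members at or near 0 in the naïve brain and rose unevenly in the tumour. Of 8 members that passed the filter, 2 were called higher, beside 0.672% of the 2679 genes tested. Both had no naïve UMI and passed the filter through their tumour-bearing sums, so this count is a description. Oasl2 had no UMI in either naïve library, where 3 UMIs would be 11.3 (WT) and 13.4 CPM (KO), and 0, 99.2 and 258 CPM (lowest, median and highest) in the tumour-bearing ones. Pooled over the tumour-bearing libraries and set against a floor of 3 UMIs over both naïve libraries, it was at least 15.9-fold higher (fitted log2 difference 7.07 ± 1.39 SE, edgeR adjusted p = 0.0113). Ifit1, likewise without a naïve UMI, reached 0, 70.0 and 204 CPM and was at least 12.3-fold higher when pooled in the same way (fitted 6.78 ± 1.59 SE, edgeR adjusted p = 0.0345). These folds are for the pooled level and do not hold for each library. Fitted values against 0 depend on the prior count. The library at 0 was WT late for both genes.

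The other oligodendrocyte values pointed the same way without passing. Ifi27l2a had 52.8 and 17.9 CPM in the naïve libraries and 166, 380 and 1781 CPM in the tumour-bearing ones (log2 difference 3.73 ± 1.05 SE, edgeR adjusted p = 0.284), and Ifit2 had 18.9 and 22.3 CPM against 27.6, 130 and 380 CPM (edgeR adjusted p = 0.316). For neither did the groups overlap. Isg15, Rsad2 and Usp18 had no naïve UMI, and reached at most 102, 68.0 and 122 CPM. The count of called members was 0 without a genotype term and without the KO late or the naïve KO library, 1 without the KO early or the KO intermediate library, 6 by DESeq2 and 8 without the filter on low counts, so it depends on these choices.

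Astrocytes were few in the tumour, with 9 to 23 cells in a sum and 3 in the WT intermediate library, which was left out. In them only Ifitm3 passed the filter, and edgeR called 0 members, with 1 below 0.05 before adjustment and 1 called by DESeq2, beside 0.371% of the 539 genes tested. Ifitm3 had 3.37 and 18.3 CPM in the naïve libraries. In the 5 tumour-bearing sums it was 127 CPM in WT early, 333 in KO early, 0 in KO intermediate, 553 in WT late and 1202 CPM in KO late, which gave a log2 difference of 5.03 ± 1.24 (SE, edgeR adjusted p = 0.141). The KO intermediate value came from 9 cells, and without that library, or without KO late, Ifitm3 was called.

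Between the myeloid classes, TAM II and TAM I, only Ifitm3 was told apart. It had 1048, 1335 and 2434 CPM (lowest, median and highest) in TAM II and 366, 793 and 944 CPM in TAM I, higher in 6 of 6 libraries (log2 difference 1.05 ± 0.17 SE, edgeR adjusted p = 2.57e-05). This was 1 of 9 members tested, beside 13.9% of 3665 genes called higher, a share near that of all genes. Isg15 at 0.94 ± 0.37 and Oasl2 at 0.66 ± 0.28 (log2, SE) had edgeR adjusted p of 0.0859 and 0.0894, and Ifit3 was lower in 4 of 6 libraries, at -0.74 ± 0.40 (edgeR adjusted p = 0.197). Without the WT late library, or without the filter on low counts, 4 members were called higher, the added ones being Isg15, Oasl2 and Rsad2. The near copy Ifitm2 was also higher in TAM II (2.27 ± 0.30 SE, edgeR adjusted p = 3.99e-06).

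The tumour cells expressed all 10 members. Ifitm3 had 991, 1501 and 2096 CPM in them, Ifi27l2a 442, 516 and 692 CPM, Zbp1 78.5, 194 and 253 CPM and Isg15 151, 170 and 189 CPM. Isg15 thus varied little between libraries while Zbp1 was lowest in the WT late and WT intermediate libraries. Set against all other named cells of the same library, 1 member was called higher (beside 29.8% of 15641 genes) and 1 lower (beside 34.7%). Ifitm3 was higher in 6 of 6 libraries by 0.41 ± 0.16 (log2, SE; edgeR adjusted p = 0.0396). Ifit2 was lower in 6 of 6, at 26.2, 64.4 and 96.1 CPM against 82.0, 108 and 219 CPM (-1.21 ± 0.20 SE, edgeR adjusted p = 0.000204).

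The WT intermediate library decided part of this. It held the highest tumour cell values of Ifit1 (96.2 CPM, next 41.8) and Rsad2 (208 CPM, next 95.01), and without it 0 members were higher and 6 were lower in tumour cells (Ifit1, Ifit2, Ifit3, Rsad2, Oasl2 and Ifi27l2a). Without the WT late library 4 members were called, 2 in each direction.

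Within the tumour cells of that library the members were spread unevenly. After each cell was thinned to 2000 UMIs, the variance of member UMIs over their mean was 7.1 in the WT intermediate library and between 2.0 and 3.3 in the other 5. A single cell there reached 59 member UMIs, against at most 31 elsewhere. Yet the share of tumour cells with at least 3 members was 41.5% there (exact binomial 95% interval 38.3% to 44.8%), inside the range of 30.9% to 58.9% of the others (70.1% there and 62.1% to 82.0% in the others before thinning). The tenth of cells with the most member UMIs held 34.2% of them in this library and between 22.5% and 26.4% in the others.

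**Figure D4:**
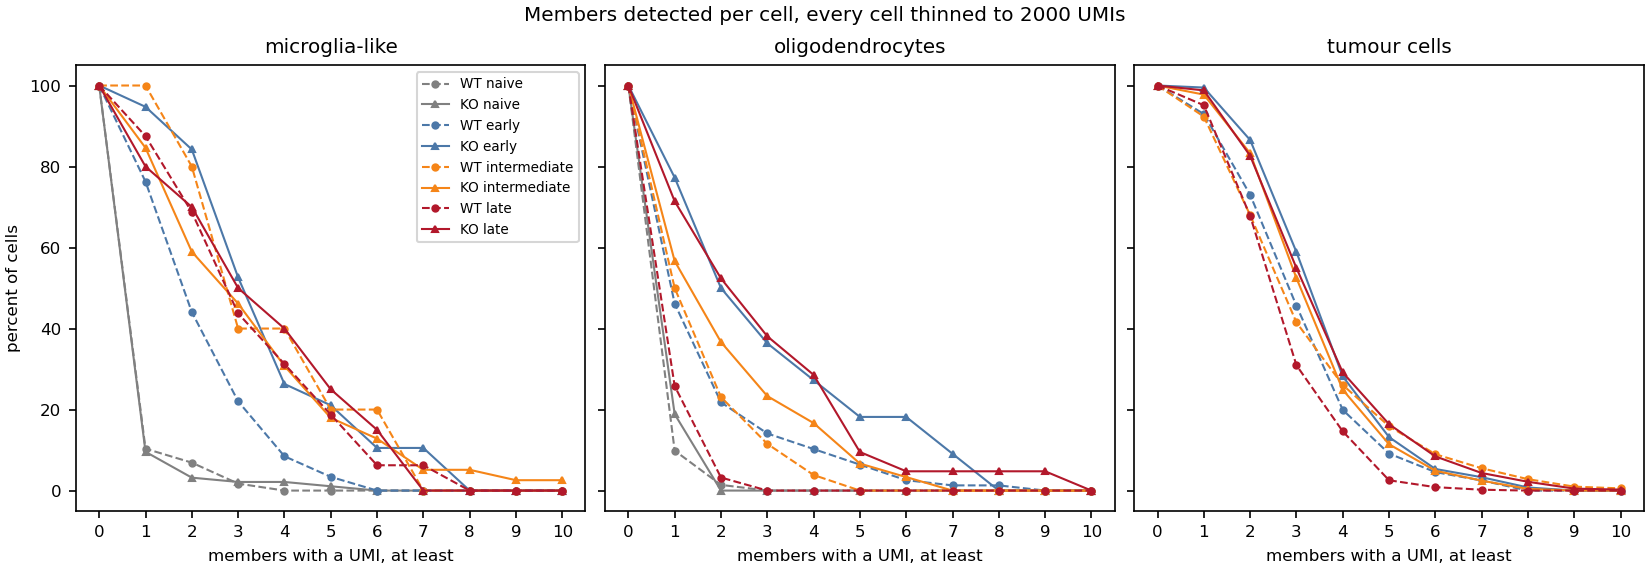
Percent of cells (vertical axis) in which at least the given number of members (horizontal axis) had a UMI, each cell thinned to 2000 UMIs, for microglia-like cells, oligodendrocytes and tumour cells, 1 line per library (dashed WT, solid KO). At 3 or more members the 3 KO tumour-bearing lines lie above the 3 WT ones in each of these classes. The shares are 23.3% to 38.1% against 0% to 14.1% in oligodendrocytes and 46.2% to 52.6% against 22.0% to 43.75% in microglia-like cells. In tumour cells they are 52.4% to 58.9% against 30.9% to 45.6%. The exact binomial intervals of the lowest KO and highest WT shares overlap in each class. For oligodendrocytes they are 9.93% to 42.3% (KO intermediate) and 7.26% to 23.8% (WT early). A genotype difference in these shares was not tested.

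The same view in the other classes showed the naïve floor. At least 3 members were seen in 1.7% (exact binomial 95% interval 0.0436% to 9.24%) and 2.1% (0.259% to 7.48%) of thinned naïve WT and KO microglia-like cells. They were seen in 0 of 71 and 0 of 53 naïve oligodendrocytes, which by a floor of 3 counts allows shares of such cells of up to 4.23% and 5.66% at this depth (exact binomial 95% upper limits 5.06% and 6.72%). In naïve endothelial cells at the same depth the shares were 23.8% (13.98% to 36.2%) and 16.7% (9.18% to 26.8%). In TAM I the share was 22.0% in the WT early library and between 40.0% and 52.6% in the other 5. In TAM II it was between 36.4%, in the WT late library, and 75.8%, in the WT early library. Before thinning, 26 of 227 oligodendrocytes of the tumour-bearing libraries, from 4 libraries, had 5 or more members. By this choice they held much of the member UMIs, at 71.1%, beside 67.5% to 76.3% for cells chosen the same way in the microglia-like, endothelial and tumour classes. They were also deeper, with a median of 4369 UMIs against 2686 in the other oligodendrocytes. Of these 26, 8 were among the highest doublet scores, and their oligodendrocyte markers summed to 63730 CPM against 104084 CPM in the other cells, with endothelial markers at 360 against 41.0 CPM and microglia markers at 622 against 336 CPM. The part of doublets or of other cell types in these cells was not tested.

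The genotype comparison asked whether loss of host Acod1 goes with a change in the members, with the 3 stages as blocks. In TAM I edgeR called 0 of 8 members (beside 0.0523% of 1912 genes), with 0 below 0.05 before adjustment and 0 by DESeq2. In TAM II it called 0 of 10 (beside 0.175% of 6273 genes), with 1 below 0.05 before adjustment and 0 by DESeq2. That member was Usp18, at 23.5 to 55.0 CPM in WT and 51.8 to 93.9 CPM in KO, with WT early, at 55.0 CPM, above KO intermediate (log2 difference 1.05 ± 0.47 SE). Fitted differences of all 10 in TAM II were positive, between 0.21 and 1.05 (log2), and none is shown to differ from 0 after adjustment.

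In tumour cells, whose own genotype does not differ, edgeR called 0 of 10 members (beside 0.0139% of 14372 genes), with 2 below 0.05 before adjustment and 1 by DESeq2. These were Zbp1 and Ifitm3. Zbp1 stood at 176, 111 and 78.5 CPM in the WT early, intermediate and late libraries and at 253, 212 and 227 CPM in the KO ones. All 3 KO values were above all 3 WT values, with a log2 difference of 1.04 ± 0.21 (SE, edgeR adjusted p = 0.262). Ifitm3 stood at 991, 1490 and 1177 CPM in WT and 2096, 1512 and 1646 CPM in KO, close together at the intermediate stage (0.57 ± 0.23 SE, edgeR adjusted p = 0.768). Microglia markers in the tumour cell sums were between 1024 and 1730 CPM in WT and between 1886 and 2831 CPM in KO; their part in these values was not tested.

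Oligodendrocytes were the class with a called member. This and the next 3 classes were compared after their values had been seen. Ifi27l2a stood at 325, 230 and 166 CPM in the WT early, intermediate and late libraries and at 1781, 860 and 435 CPM in the KO ones, higher at 3 of 3 stages and with no overlap. The log2 difference was 1.98 ± 0.28 (SE, edgeR adjusted p = 0.000808), 1 of 8 members tested, beside 0.332% of 2407 genes called. In the naïve libraries the order was the other way, at 52.8 CPM in WT and 17.9 CPM in KO.

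The summed level in oligodendrocytes was 1201, 531 and 331 CPM in the WT early, intermediate and late libraries and 3924, 1622 and 2228 CPM in the KO ones. The ratio of KO to WT was 3.27 (exact binomial 95% interval 2.81 to 3.79) at the early stage, 3.06 (2.23 to 4.25) at the intermediate stage and 6.72 (4.66 to 9.93) at the late stage. These intervals cover counting error within 1 library a side and give no test of genotype. In the naïve brain the ratio was 0.773 (0.375 to 1.55). Over the 10 members and 3 stages, KO was above WT in 28 of 30 pairs. It was above in 23 of 30 in macrophage-like, 23 of 30 in endothelial, 20 of 30 in microglia-like and 18 of 30 in tumour cells. Astrocytes had 16 of 19 such pairs and lymphocytes 13 of 20. The pairs reuse the same libraries and no share over all genes is given beside them, so these counts are descriptions. Over all genes tested, the median log2 difference of KO against WT in these classes lay between -0.00018 (tumour cells) and 0.0583 (lymphocytes). The median log2 difference in oligodendrocytes was 1.87 over the 8 members tested and 0.0194 over all genes tested. In oligodendrocytes Ifit1 stood at 51.9, 40.1 and 0 CPM in WT against 204, 88.0 and 163 CPM in KO (2.24 ± 0.66 SE, edgeR adjusted p = 0.35). Ifit2, at 172, 30.1 and 27.6 CPM against 340, 88.0 and 380 CPM, gave 1.76 ± 0.46 (SE, edgeR adjusted p = 0.189).

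Ifitm3 did not follow this pattern in oligodendrocytes. It was at 544 CPM in the KO early library but at 68.4 and 67.9 CPM in the later KO libraries, beside 74.7, 130 and 64.4 CPM in WT. Few cells stood behind these sums, 22 to 31 in KO and 26 to 85 in WT, and in the KO late library 3 of 21 thinned cells held 66.7% of the member UMIs. Endothelial markers in the oligodendrocyte sums ran from 10.0 to 46.0 CPM in WT and from 19.5 to 533 CPM in KO, macrophage markers from 10.0 to 64.9 and from 19.5 to 250 CPM, and oligodendrocyte markers from 94514 to 107571 and from 84845 to 105979 CPM; their part in the result was not tested. The barcodes with the fewest UMIs carried Ifi27l2a at 430, 741 and 492 CPM in the WT early, intermediate and late libraries and at 740, 721 and 525 CPM in the KO ones, and the part of free RNA was not tested. Ifi27l2a was called also with the highest doublet scores removed and without each library in turn, its adjusted p lying between 3.94e-08 and 0.01 over these and the other alternatives. Without KO early, KO intermediate or WT early, 4 members were called.

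**Figure D5:**
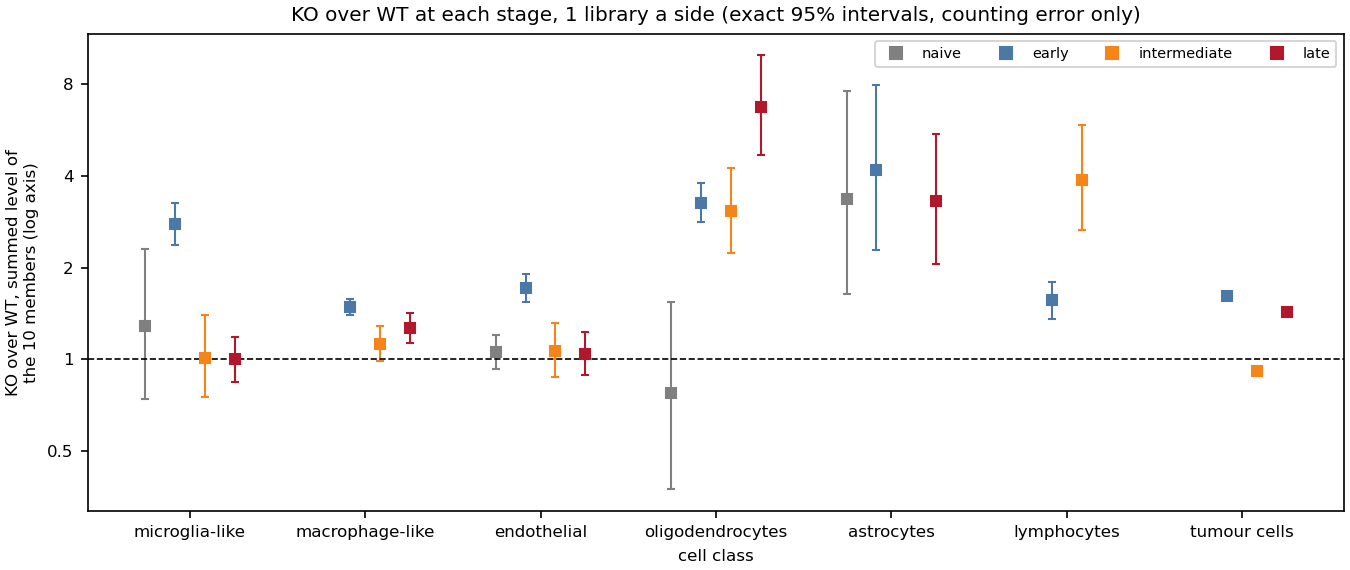
Ratio of KO to WT in the summed level of the 10 members (log axis) by cell class, 1 square per stage, with exact binomial 95% intervals for 1 library a side that cover counting error only; the dashed line is at 1. Oligodendrocytes lie at 3.06 or above at the 3 tumour stages and at 0.773 in the naïve brain, astrocytes at 4.19 (early), 3.31 (late) and 3.36 (naïve) and lymphocytes at 3.87 at the intermediate stage, whereas microglia-like and endothelial cells lie near 1 at the intermediate and late stages.

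The remaining classes gave no call. In endothelial cells edgeR called 0 of 9 members (beside 0.0401% of 2495 genes), with 2 below 0.05 before adjustment (Ifit3 and Ifit1) and 0 by DESeq2. In lymphocytes it called 0 of 6 (beside 0.244% of 4102 genes), with 1 below 0.05 before adjustment and 0 by DESeq2, and in astrocytes 0 of 2 (beside 0.942% of 743 genes), with 1 below 0.05 before adjustment and 0 by DESeq2. Ifi27l2a in lymphocytes was at 1487 CPM in WT early and 95.5 CPM in WT intermediate, which held 6 cells, and at 1984, 1927 and 1742 CPM in KO (log2 difference 1.94 ± 0.58 SE, edgeR adjusted p = 0.271). On simulated sums with log2 changes of 2, the fits for lymphocytes and astrocytes recovered almost no changed gene. The fit of the difference between endothelial and microglia-like changes recovered 25.5%. Late against early fits recovered 40% in TAM II, 39% in tumour cells and 62% in TAM I. KO against WT fits recovered 63.5% in TAM I and 61% in TAM II, where fitted member differences were at most 0.86 and 1.05 (log2). In all these fits, counts of 0 and members that missed the threshold do not show that members were alike.

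The ratio of KO to WT was also taken stage by stage in the larger classes. In microglia-like cells it was 2.78 (exact binomial 95% interval 2.37 to 3.25) for the summed level at the early stage, 1.01 (0.750 to 1.40) at the intermediate and 0.999 (0.844 to 1.18) at the late stage. In macrophage-like cells it was 1.48 (1.39 to 1.57), 1.12 (0.985 to 1.29) and 1.27 (1.13 to 1.42). It was 1.71 (1.54 to 1.90), 1.07 (0.873 to 1.32) and 1.04 (0.887 to 1.23) in endothelial cells. In tumour cells it was 1.62 (1.57 to 1.67), 0.914 (0.896 to 0.933) and 1.43 (1.40 to 1.47). Whether the ratio differs between stages was not tested, because each stage has 1 library a genotype.

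From early to late, edgeR called 0 of 8 members in TAM I (beside 0.105% of 1912 genes), with 2 below 0.05 before adjustment and 0 by DESeq2. These were Ifit3, which stood at 32.0 and 113 CPM early and 247 and 214 CPM late (WT, then KO; log2 difference 1.88 ± 0.63 SE, edgeR adjusted p = 0.664), and Rsad2, at 39.1 and 113 CPM early and 337 and 139 CPM late (1.81 ± 0.63 SE, edgeR adjusted p = 0.719). In TAM II it called 0 of 10 (beside 0% of 6273 genes), with 0 below 0.05 before adjustment and 0 by DESeq2. In tumour cells it called 0 of 10 (beside 0% of 14372 genes), with 2 below 0.05 before adjustment and 0 by DESeq2. Usp18 was lower late than early there by 0.75 ± 0.25 and Zbp1 by 0.70 ± 0.25 (log2, SE; edgeR adjusted p = 0.572 and 0.604).

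The other parts of the pathway were counted from lists. Of 18 type I interferon genes listed, only Ifnb1 had a row in the tables, with 3 UMIs in macrophage-like, 1 in microglia-like and 4 in tumour cells over the tumour-bearing libraries, too few for a level. Of the receptor and signalling genes, Stat2 was higher in TAM I than in naïve microglia-like cells (log2 difference 1.70 ± 0.53 SE, edgeR adjusted p = 0.0254). In endothelial cells Ifnar2 and Ifnar1 were lower, Ifnar2 by -1.24 ± 0.36 and Ifnar1 by -1.11 ± 0.32 (log2, SE; edgeR adjusted p = 0.0467 and 0.0456). Tumour cells were lower than the other cells for Jak1, Ifnar1 and Ifnar2, in a comparison where 34.7% of the 15641 genes tested were called lower.

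Irf7, the factor that amplifies interferon induction, was higher in TAM I (4.39 ± 0.82 SE, edgeR adjusted p = 0.00032), in tumour endothelial cells (2.02 ± 0.46 SE, edgeR adjusted p = 0.0186) and in TAM II against TAM I (1.02 ± 0.28 SE, edgeR adjusted p = 0.00708). It was lower in tumour cells than in the other cells (-1.63 ± 0.18 SE, edgeR adjusted p = 5.55e-06). Of the other interferon-stimulated genes, 18 of 33 tested were higher in TAM I than in naïve microglia-like cells and 0 lower, beside 9.91% of all genes tested called higher. They were led by Cxcl10, a chemokine that draws T cells, at 7.99 ± 0.98 (log2, SE; edgeR adjusted p = 0.000139). In endothelial cells 2 of 23 were higher, Bst2 and Lgals3bp, beside 4.65% of all genes, and in oligodendrocytes 2 of 8, Rtp4 and Ifi27, beside 0.672%. In the KO against WT and late against early fits no gene of these lists was called.

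In tumour cells the summed members were at 2168, 3184 and 2097 CPM in the WT early, intermediate and late libraries and at 3510, 2911 and 3005 CPM in the KO ones. Irf1, a gene that answers to interferon gamma, was at 248, 94.7 and 54.0 CPM in WT and 267, 216 and 270 CPM in KO tumour cells, and was lower in the later WT libraries. Ifng itself was at 317 and 0 CPM in WT early and WT intermediate lymphocytes and at 774, 51.0 and 193 CPM in the KO early, intermediate and late ones. The 0 in WT intermediate came from 6 cells, where 3 UMIs would be 71.6 CPM. This is above the KO intermediate value, so Ifng was not told apart at that stage. WT late had 4 lymphocytes and was left out. The part of interferon gamma in the Irf1 and member values was not tested.

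Across 64 sums of 13 classes, the genes whose log2(CPM + 10) followed the members' summed level most closely were Bst2 (Spearman's rho 0.863), Irf7 (0.862), Ifih1 (0.856), Gbp3 (0.852) and Gbp2 (0.837), of 4336 genes compared. Among the members themselves Rsad2 and Isg15 were closest (0.855), followed by Ifitm3 and Isg15 (0.834), Zbp1 and Ifi27l2a (0.831) and Ifit1 and Ifit3 (0.822). Ifit1 and Ifi27l2a were the least alike (0.322). These sums share libraries and differ in depth, so the values are descriptions.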

How the data were processed

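Raw counts of UMIs per gene and cell barcode were deposited by the authors for 3000 barcodes of each library, with no normalization. Per the labels and the submitters' processing notes, reads were converted with bcl2fastq 2.0 and run through the Drop-seq pipeline with STAR on GRCm38/mm10; the STAR version and the annotation are not given in the sources used here. Because Drop-seq counts 3′ ends, near-identical copies can share reads.

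Per library the top 1000 barcodes by UMIs were taken; genes had to be found in 30 cells or more and cells to hold 1000 genes or more. Cells were clustered on 50 principal components by tSNE (Rtsne 0.17, perplexity 50) and HDBSCAN (scikit-learn 1.9.0, at least 19 cells), and myeloid cells were divided by Leiden clustering (leidenalg 0.10.2). Classes were named from marker lists; the same class was reached for 99.1% of cells when interferon genes were left out. Doublets were kept, and the 5% highest Scrublet scores (scanpy 1.11.5) were removed in an alternative. UMIs were summed per library and class (at least 5 cells) and tested with edgeR 4.0.16 (R 4.3.3; TMM, filterByExpr, robust quasi-likelihood test, Benjamini-Hochberg over all genes tested, 0.05), tested on simulated data first; SE is the log2 difference over the root of F. Tumour-bearing libraries were compared with naïve ones with genotype as covariate, classes within libraries with library as block, and KO with WT with stage as block. With 1 library per condition, p-values measure the spread between these libraries. DESeq2 1.42.0 was an alternative. Intervals are exact (scipy 1.17.1) at 95% and, like floors of 3 counts, cover counting error only. All 10 members are named; of each list, called genes are named up to 3. Members, lists and tests were chosen with earlier results of these data known, and the comparisons described as chosen after values were seen were added last. A gene of the signalling list is not reported here.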

Additional observations from a re-analysis of the deposited data

Results flagged for a closer look

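In 77 groups of 5 or 6 tumour-bearing libraries (1 gene or the summed level in 1 class), 12 held a value far from the others. The rule's nominal rate is about 1 group in 20. The groups share libraries and some rest on few UMIs, so the count of 12 does not show an excess over chance. In microglia-like cells the flagged value was Rsad2 in the WT late library (337 CPM, next 139). In macrophage-like cells it was Ifitm3 in KO early (2434 CPM, next 1540), in endothelial cells the 10 genes summed in KO early (6866 CPM, next 4403) and in oligodendrocytes Ifitm3 in KO early (544 CPM, next 130). In astrocytes they were Ifit1 (290 CPM, next 66.7) and Oasl2 (207 CPM, next 33.3) in KO late and Ifit2 in WT early (28.3 CPM, the others at 0). The Ifit1 value came from 7 UMIs in 11 cells. The Ifit2 value was 2 UMIs, where 3 UMIs would be 42.4 CPM in that library and 97.7 to 158 CPM in the others. Ifit2 was thus below the floor and not told apart between these libraries. In lymphocytes they were Rsad2 in KO intermediate (41.7 CPM, next 23.9), Usp18 in KO late (74.1 CPM, next 30.9) and, as a low value, Ifi27l2a in WT intermediate (95.5 CPM, next 1487). The next Rsad2 value was 1 UMI in the 6 cells of WT intermediate, where 3 UMIs would be 71.6 CPM. Rsad2 was thus not told apart between these libraries. In tumour cells they were Ifit1 (96.2 CPM, next 41.8) and Rsad2 (208 CPM, next 95.01) in WT intermediate.

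The change of Ifitm3 from naïve to tumour-bearing differed between endothelial and microglia-like cells by -2.40 ± 0.53 (log2, SE; edgeR adjusted p = 0.00504).

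Barcodes that entered no comparison carried the genes as well. Among the last 1000 of the 3000 deposited per library, ranked by UMIs, the summed level was 126 and 254 CPM in the naïve WT and KO libraries, and it was higher in each tumour-bearing library, at 1279 CPM in WT early, 3456 in KO early, 3210 in WT intermediate, 2614 in KO intermediate, 2095 in WT late and 2639 CPM in KO late. These barcodes had a median of 252 to 521 UMIs.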

How the results depend on the processing

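No paired analysis was possible by replicate number, because each condition has 1 library; KO and WT were paired by stage, and cell classes by library, in the fits given. Calls lost or gained, of members called: microglia-like cells, tumour-bearing against naïve, 8, were 5 in the 4 libraries of the second set of file numbers and 5 to 8 with a library left out. Endothelial cells, 5, were 3 with doublet scores removed, 3 in cells with more endothelial than mural UMIs and 1 to 6 with a library left out. Oligodendrocytes, 2, were 6 by DESeq2, 8 without the filter on low counts, 0 without the genotype term, 8 in the second set and 0 to 3 with a library left out. Astrocytes, 0, were 1 by DESeq2, 1 without the filter, 1 with at least 10 cells per sum and 0 to 1 with a library left out. TAM II against TAM I, 1, were 4 without the filter and 1 to 4 with a library left out, and tumour cells against other cells, 2, were 2 to 6. KO against WT in tumour cells, 0, were 1 by DESeq2 and 1 without the filter (Zbp1), and in oligodendrocytes, 1, were 1 to 4 with a library left out. Naïve endothelial against microglia-like cells, 5, were 8 without the filter and 4 to 8 with a library left out; the difference between their changes, 1, was 2 by DESeq2, 4 without the filter and 1 to 4 with a library left out. The median summed level of naïve endothelial cells, 1424 CPM, was 1510.4 CPM without mitochondrial genes and 1362 CPM with at least 500 genes per cell. Single genes that changed sign did so with 1 library left out, as log2 ranges: Rsad2 in endothelial cells (-1.18 to 0.31, the latter without naïve WT), Usp18 in tumour against other cells (-0.35 to 0.078, the latter without KO late), Zbp1 in naïve endothelial against microglia-like cells (-3.11 to 2.09) and in the difference of their changes (2.69 to -2.52), the last value of both without naïve KO. The cause was not tested. Of 230 alternatives for counts and levels, 194 stayed within their limits, and for single genes 867 kept direction and side of the threshold, 69 newly passed it, 35 no longer passed and 4 changed sign. Depth and few cells (5 microglia-like and 6 endothelial cells in the WT intermediate library) limit what these sums can show.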
